A study of Homo sapiens with 12 samples.

Results

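The aldo-keto reductases examined were 9 genes, AKR1A1, AKR1B1, AKR1B10, AKR1C1, AKR1C2, AKR1C3, AKR1C4, AKR1D1 and AKR7A2, out of the 54127 genes in the count files. They were listed by symbol, and the list was picked from the same PBKi against DMSO contrast of these libraries, so their differences between the groups are given as a description. Calls from the fit across all genes are counted beside the share of all genes called, and support no statement about the members. All 9 were matched to an Ensembl identifier of the files. RNAseq had been performed in C4-2 cells, an androgen-responsive PrCa line derived from LNCaP and grown in RPMI with 10% FBS. The labels describe total RNA from flow sorted cells, whereas the methods of the study mention no sort. In all, 6 libraries came from cells given DMSO vehicle and 6 from cells given 1 µM PBKi (HI-TOPK-032, which inhibits the kinase PBK) for 6 h, and no other genotype or agent was involved. A cell line at 1 dose and 1 time limits the model, and the labels do not say whether replicates were separate cultures, so the spread between libraries may be partly technical.

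Aldo-keto reductases are soluble enzymes that use NADPH to reduce carbonyl groups of sugars, lipid aldehydes, quinones and steroids. The AKR1C enzymes are hydroxysteroid dehydrogenases. In the prostate AKR1C3 is known for converting androstenedione to testosterone, whereas AKR1C2 is known for inactivating dihydrotestosterone and AKR1C1 for inactivating progesterone. AKR1C4 and AKR1D1 are mainly liver enzymes of steroid and bile acid metabolism. AKR1B1 is aldose reductase, which makes sorbitol from glucose, and AKR1B10 is its relative that reduces retinaldehyde and lipid aldehydes. AKR1A1 and AKR7A2 are widely expressed aldehyde reductases. Several AKR1B and AKR1C genes are also known as targets of NRF2, the transcription factor of the antioxidant response.

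The 4 AKR1C genes lie side by side on chromosome 10 of GRCh37. AKR1C1 (ENSG00000187134) runs from 5005445 to 5025475 on the plus strand, and AKR1C2 (ENSG00000151632) from 5029967 to 5060223 on the minus strand. AKR1C3 (ENSG00000196139) runs from 5077546 to 5149878 and AKR1C4 (ENSG00000198610) from 5237425 to 5260912, both on the plus strand. AKR1B1 (ENSG00000085662, 134127108 to 134144036, minus strand) and AKR1B10 (ENSG00000198074, 134212319 to 134226164, plus strand) are neighbours on chromosome 7. AKR1D1 (ENSG00000122787) is elsewhere on chromosome 7, from 137687070 to 137803051. AKR1A1 (ENSG00000117448, 46016215 to 46035721) and AKR7A2 (ENSG00000053371, 19630459 to 19638638) are on chromosome 1.

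The AKR1C genes are close copies of each other, which matters for counting because a short read can match more than 1 of them. Over their 969 coding bases AKR1C1 and AKR1C2 were 98.0% identical and differed at 19 bases. AKR1C1 and AKR1C3 were 91.8% identical, and AKR1C1 and AKR1C4 were 88.5% identical. The AKR1B1 and AKR1B10 coding sequences were 75.2% identical. The stretch of 60 coding bases in which AKR1C1 and AKR1C2 differ most, coding bases 103 to 162 within an exon, is shown first because reads from it can be assigned to a gene. Capitals mark bases unlike AKR1C1 at the same coding position, of which there are 10 in AKR1C2, 7 in AKR1C3 and 5 in AKR1C4 (GRCh37, strand in brackets).
AKR1C1 chr10:5008124-5008183 (+): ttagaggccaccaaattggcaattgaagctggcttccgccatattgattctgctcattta
AKR1C2 chr10:5043796-5043855 (-): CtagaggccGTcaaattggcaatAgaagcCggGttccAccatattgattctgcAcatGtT
AKR1C3 chr10:5138620-5138679 (+): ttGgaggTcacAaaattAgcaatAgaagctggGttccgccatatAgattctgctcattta
AKR1C4 chr10:5242162-5242221 (+): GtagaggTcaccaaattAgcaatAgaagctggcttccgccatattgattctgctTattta

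Coding bases 865 to 924 are shown as the opposite case, since AKR1C1 and AKR1C2 are identical there and a read inside them cannot be told apart. AKR1C3 differs from AKR1C1 at 11 of these bases and AKR1C4 at 15, again in capitals.
AKR1C1 chr10:5018061-5018120 (+): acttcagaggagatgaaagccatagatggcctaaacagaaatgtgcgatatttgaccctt
AKR1C2 chr10:5034028-5034087 (-): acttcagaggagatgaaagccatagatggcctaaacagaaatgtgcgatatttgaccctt
AKR1C3 chr10:5147805-5147864 (+): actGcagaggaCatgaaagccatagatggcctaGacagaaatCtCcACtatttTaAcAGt
AKR1C4 chr10:5258692-5258751 (+): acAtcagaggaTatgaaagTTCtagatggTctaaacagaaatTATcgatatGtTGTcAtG

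The longest run of identical coding bases of AKR1C1 and AKR1C2 was 186 bases, longer than the reads. Of all 40-base windows of the coding sequence, the length of a read, 37.0% of those of AKR1C1 and 36.0% of those of AKR1C2 occurred in no other gene model. The share was 68.6% for AKR1C3, 73.1% for AKR1C4, 62.8% for AKR1B10 and 84.6% for AKR1B1. It was 98.2% for AKR1D1, 86.9% for AKR7A2 and 100% for AKR1A1. Over whole transcripts, untranslated parts included, the share was 74.2% for AKR1C1 and 46.9% for AKR1C2. How reads were split between the paralogues by the aligner was not tested.

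Libraries held 9663203 to 28029908 reads on genes in DMSO and 13122415 to 22817803 in PBKi. The luminal prostate markers listed were expressed in all libraries, with a summed level of 5714 to 6850 CPM in DMSO and 3000 to 4058 CPM in PBKi (read counts scaled to library size, TMM-normalised). All 12 were detected well enough for testing, and 8 were lower and 1 higher in PBKi. Immune markers summed to at most 0.526 CPM in any library, and none of the 6 was testable. Liver markers summed to 0.755 to 1.33 CPM in DMSO and 0.937 to 1.65 CPM in PBKi, with ALB at 0 in all 12 libraries. Mean levels in DMSO and PBKi were 0.838 and 0.487 CPM for TTR and 0.0767 and 0.727 CPM for SERPINA1. The 1 liver marker tested was called lower in PBKi. Stromal markers summed to 22.0 to 26.98 CPM in DMSO and 20.5 to 25.4 CPM in PBKi, most of it COL1A1. Basal markers summed to 1.10 to 1.73 CPM in DMSO and 0.665 to 1.503 CPM in PBKi. The part of these markers in the results below was not tested.

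In total, 7 of the 9 members had at least 10 counts in at least 6 libraries and entered the fit of 14505 genes. AKR1B1, AKR1B10, AKR1C1, AKR1C2 and AKR1C3 reached this minimum through the PBKi libraries, where all 6 had at least 10 counts, whereas at most 1 DMSO library did for each. AKR1A1 and AKR7A2 passed in every library. AKR1D1 had at least 10 counts in 5 libraries and AKR1C4 in none. Across all genes tested, 20.1% were called higher in PBKi and 21.5% lower by edgeR's quasi-likelihood test at a Benjamini-Hochberg adjusted p under 0.05, and 5 members were called higher and 0 lower. In 10.5% of all genes every PBKi library lay above every DMSO library, and in 9.68% every PBKi library lay below. The same 5 members had PBKi libraries all above the DMSO libraries. Because the members were chosen on this contrast, these counts are not evidence about the family.

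**Figure D1:**
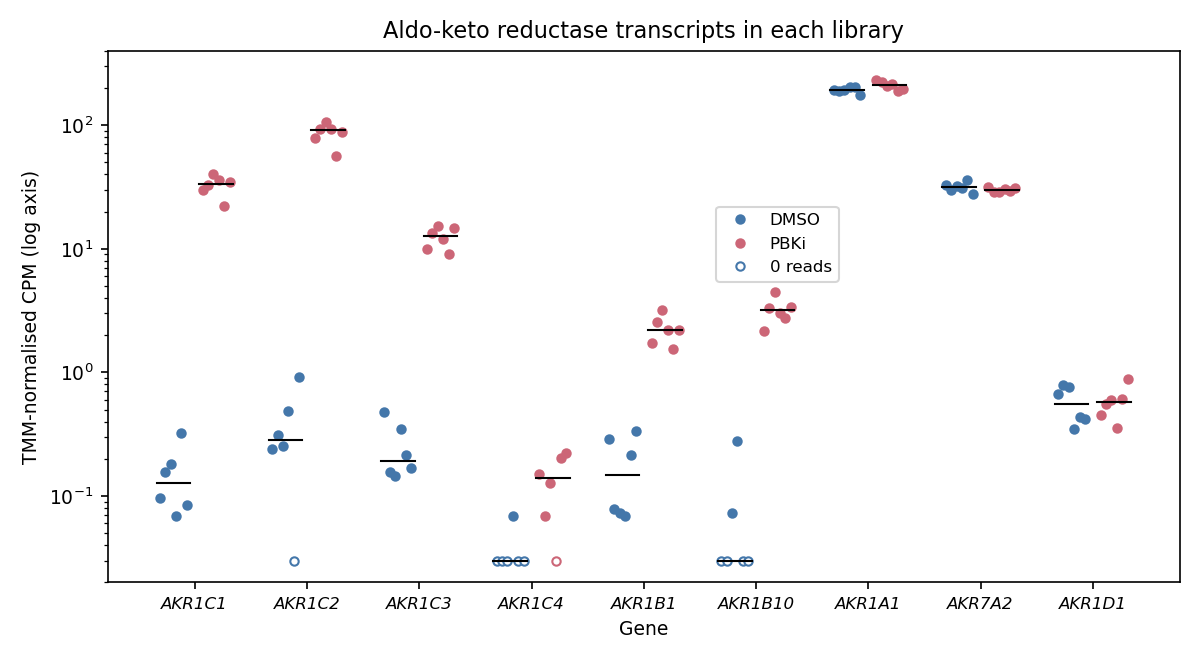
TMM-normalised CPM (log axis) of the 9 members in the 6 DMSO and 6 PBKi libraries. Each point is a library, open points at the bottom stand for 0 reads and black lines are medians. All PBKi points of AKR1C1, AKR1C2, AKR1C3, AKR1B1 and AKR1B10 sit above all DMSO points, whereas the groups overlap for the other 4 genes.

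AKR1C2, which inactivates dihydrotestosterone, was nearly silent in DMSO and was the most abundant AKR1C transcript in PBKi. Its counts per library were 0 to 11 in DMSO and 844 to 2526 in PBKi. In DMSO the lowest, median and highest levels were 0, 0.283 and 0.923 CPM. In PBKi they were 56.6, 90.6 and 107 CPM, with PBKi replicate 5 lowest and PBKi replicate 3 highest. The groups did not overlap. The fitted log2 fold change was 7.91 (standard error 0.24), rank 2 of the 14505 genes from the highest. Pooled over libraries there were 34 reads in DMSO and 9059 in PBKi, a ratio of 252.6 (exact 95% interval 180.6 to 365, counting error only).

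AKR1C1, whose promoter and coding sequence are nearly those of AKR1C2, changed to a similar extent. DMSO libraries held 1 to 5 AKR1C1 reads and PBKi libraries 328 to 958. The lowest, median and highest levels were 0.0693, 0.126 and 0.325 CPM in DMSO and 22.0, 33.7 and 40.6 CPM in PBKi. The groups did not overlap, and PBKi replicates 5 and 3 were again lowest and highest. The log2 fold change was 7.76 (standard error 0.23), rank 4 of all genes tested. The pooled counts of 14 and 3440 reads gave a ratio of 233 (exact 95% interval 138.7 to 426.6).

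AKR1C3, which makes testosterone from androstenedione, had 2 to 10 reads per library in DMSO and 132 to 361 in PBKi. Its lowest, median and highest levels were 0.144, 0.192 and 0.480 CPM in DMSO and 8.99, 12.7 and 15.3 CPM in PBKi. There was no overlap between the groups. The log2 fold change was 5.55 (standard error 0.24), rank 25. The pooled ratio, from 25 and 1290 reads, was 48.9 (exact 95% interval 33.0 to 75.9), so the interval lay below those of AKR1C1 and AKR1C2.

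AKR1C4, the liver member of the cluster, was close to the limit of detection in both groups. A total of 1 read was counted over the DMSO libraries and 12 over the PBKi libraries, with 0 to 3 per PBKi library. PBKi replicate 4 held no AKR1C4 read and DMSO replicate 4 held the only DMSO read, so the groups overlapped. The pooled ratio was 11.4 with an exact 95% interval of 1.68 to 486.3. In the fit with no filter on counts AKR1C4 was called higher in PBKi (log2 fold change 2.83, standard error 0.93), a value that depends on the prior count because only 1 DMSO read was present. Of its sequence, 16.1% of the coding windows are shared with other members. Whether these reads came from AKR1C4 or from its paralogues was not tested.

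Within the PBKi libraries the split of counted reads between the AKR1C genes varied little. Reads that align to more than 1 place are not in these counts, so the shares are not shares of transcripts. AKR1C2 took 64.1% to 66.8% of the reads counted on AKR1C1, AKR1C2 and AKR1C3 together, AKR1C1 took 23.6% to 25.6% and AKR1C3 took 8.35% to 10.8%. The lowest share of AKR1C3 was in PBKi replicate 1 (Wilson 95% interval 7.09% to 9.82%) and the highest in PBKi replicate 6 (9.43% to 12.2%), so these intervals overlapped. The chi-square of the counts over the 6 libraries was 1.35 per degree of freedom. In DMSO only 73 reads fell on the 3 genes in all. Of these 46.6% were on AKR1C2 (35.6% to 57.9%), 19.2% on AKR1C1 (11.8% to 29.7%) and 34.2% on AKR1C3 (24.4% to 45.7%). The DMSO interval of AKR1C3 thus lay above the interval of every PBKi library, and that of AKR1C2 lay below. The pooled intervals cover counting error only and leave out the spread between DMSO libraries, which were uneven. AKR1C3 had 10 reads in DMSO replicate 1 and 2 in DMSO replicate 6, whereas AKR1C2 had 5 and 11. This comparison restates the unlike fold changes of genes chosen on the same contrast. The sum of the 3 genes was 0.541 to 1.18 CPM in DMSO and 87.7 to 162.9 CPM in PBKi.

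**Figure D2:**
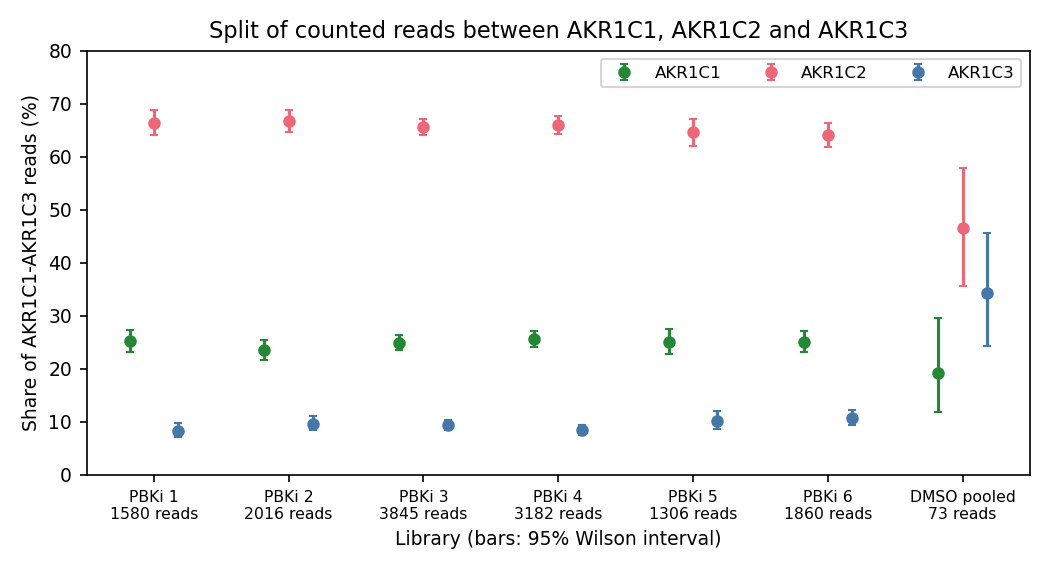
Share (%) of the reads counted on AKR1C1, AKR1C2 and AKR1C3 that fell on each gene, in each PBKi library and in the 6 DMSO libraries pooled, with 95% Wilson intervals. AKR1C2 holds 64.1% to 66.8% in the PBKi libraries, and the DMSO intervals are wide because only 73 reads were counted.

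AKR1B10, which reduces retinaldehyde and lipid aldehydes, had no read in 4 of the 6 DMSO libraries. DMSO replicate 3 held 2 reads and DMSO replicate 4 held 4, whereas PBKi libraries held 29 to 106. The lowest, median and highest PBKi levels were 2.18, 3.18 and 4.49 CPM, and the highest DMSO level was 0.277 CPM. The groups did not overlap, and DMSO replicate 4 stood apart from the other DMSO libraries. The log2 fold change was 5.55 (standard error 0.41), rank 26, and it was 6.69 without DMSO replicate 4. Pooled counts of 6 and 338 reads gave a ratio of 53.4 (exact 95% interval 24.3 to 146.6). AKR1B10 shares 15% of its transcript windows with AKR1B15, its neighbour, which had a mean of 1.01 ± 0.245 CPM in the DMSO libraries and 1.01 ± 0.189 CPM in the PBKi libraries (SD, n = 6 each).

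AKR1B1, aldose reductase, had a smaller fitted change than AKR1B10. It had 1 to 6 reads per library in DMSO and 23 to 75 in PBKi. The lowest, median and highest levels were 0.0693, 0.147 and 0.336 CPM in DMSO and 1.54, 2.20 and 3.18 CPM in PBKi, with no overlap. The log2 fold change was 3.72 (standard error 0.32), rank 68. The 16 and 237 pooled reads gave a ratio of 14.0 (exact 95% interval 8.47 to 25.0). This interval just overlapped that of AKR1B10 (24.3 to 146.6).

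The abundant aldehyde reductases did not share this pattern of separated groups. AKR1A1 had a mean of 192 ± 9.96 CPM in the DMSO libraries and 210 ± 15.9 CPM in the PBKi libraries (SD, n = 6 each). The DMSO libraries ranged from 177 to 204.5 CPM around a median of 192 CPM and the PBKi libraries from 187 to 230.5 CPM around 211 CPM, so the groups overlapped. The log2 fold change was 0.13 (standard error 0.06), past the threshold in some of the alternative fits but not as reported here. AKR7A2 had a mean of 31.5 ± 2.84 CPM in the DMSO libraries and 30.0 ± 1.16 CPM in the PBKi libraries (SD, n = 6 each), with a log2 fold change of -0.07 (standard error 0.06). Its DMSO libraries ranged from 27.6 to 36.0 CPM and its PBKi libraries from 28.6 to 31.6 CPM, inside the DMSO range. The level was higher in PBKi than in the DMSO library of the same number only for replicate 6.

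AKR1D1, the liver steroid reductase of bile acid synthesis, was rare in both groups. DMSO libraries held 4 to 21 reads and PBKi libraries 6 to 14. The lowest, median and highest levels were 0.346, 0.552 and 0.784 CPM in DMSO and 0.357, 0.573 and 0.886 CPM in PBKi, which overlapped over nearly their whole range. The pooled ratio was 0.916 (exact 95% interval 0.6252 to 1.34). In the fit with no filter on counts the log2 fold change was -0.09 (standard error 0.32).

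The reads counted on the family were divided differently in the groups. The 9 members summed to 206.4 to 239 CPM in DMSO and 309.6 to 407.6 CPM in PBKi. AKR1A1 was 84.4% to 86.3% of this sum in DMSO and 51.0% to 60.5% in PBKi. These are shares of reads, not scaled to gene length.

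**Figure D3:**
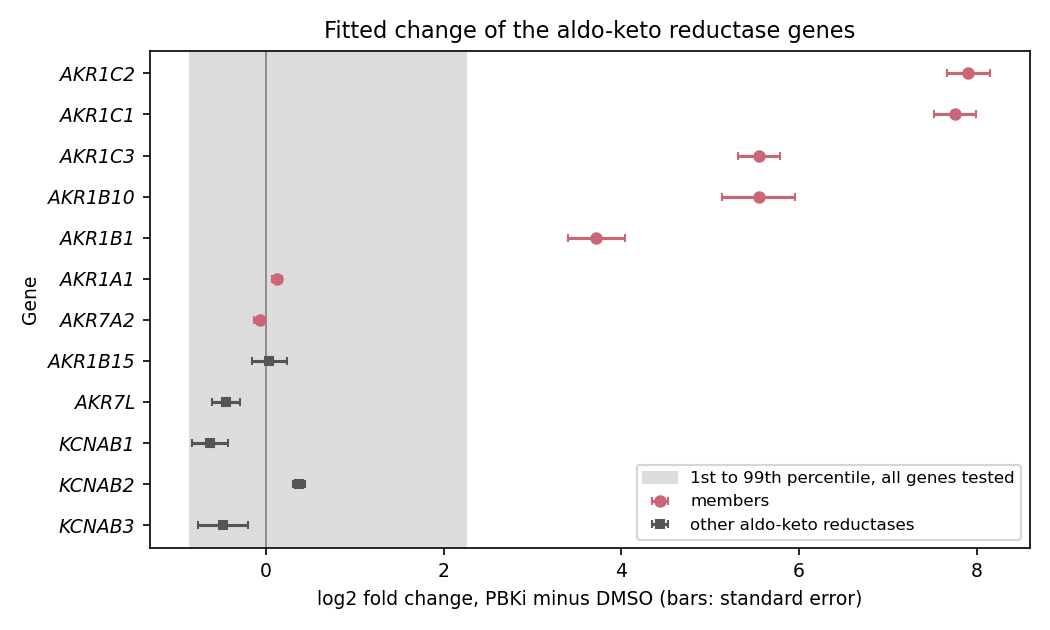
Fitted log2 fold change (PBKi minus DMSO, bars are standard errors) of the 7 members in the fit and of 5 other aldo-keto reductases. The grey band holds the 1st to 99th percentile of all genes tested (-0.86 to 2.26), and AKR1C2, AKR1C1, AKR1C3, AKR1B10 and AKR1B1 lie to the right of it.

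The order of the genes by level was examined per length, as CPM per kb of the union of a gene's exons. In DMSO the median level was 61.4 for AKR1A1, 17.6 for AKR7A2 and 0.162 for AKR1D1. It was 0.0491 for AKR1C3, 0.0465 for AKR1C2, 0.0403 for AKR1B1, 0.0144 for AKR1C1 and 0 for AKR1B10 and AKR1C4. For the test, genes were ranked after a pseudocount of 0.5 was added to their reads, which placed AKR1B10 and AKR1C4 above AKR1C1. With 6 libraries, an exact permutation test (two-sided, flipping the signs of log2 differences between neighbours in that ranking) cannot go below p = 0.0312. The neighbours AKR1A1 and AKR7A2 (mean log2 difference 1.80 ± 0.09, SD), AKR7A2 and AKR1D1 (6.70 ± 0.47), and AKR1D1 and AKR1C3 (1.33 ± 0.89) each had that p (exact permutation test), with the same order in 6 of 6 libraries. AKR1B10 and AKR1C4 gave that p too, but both had 0 reads in 4 of the 6 DMSO libraries, where the pseudocount of 0.5 and the gene lengths alone set their order, so this pair was not ordered by the data. Adjusted over the 8 neighbour pairs it was 0.0625, so no pair passed the threshold. The neighbours were set by ranking the medians of these same 6 libraries. DMSO levels are also part of the contrast on which the members were chosen. Each p here thus describes the order and is not independent support for it. The order within AKR1C3, AKR1C2, AKR1B1 and AKR1B10, and between AKR1C4 and AKR1C1, did not differ beyond the spread between libraries (exact permutation test, p from 0.531 to 0.938). The exon union of AKR1C1 is 8765 bases, far longer than its 969 coding bases, which lowers its level on this scale.

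In PBKi the median level per kb of exon union was 67.6 for AKR1A1, 16.8 for AKR7A2, 14.9 for AKR1C2, 3.84 for AKR1C1, 3.25 for AKR1C3, 1.79 for AKR1B10 and 0.602 for AKR1B1. AKR1D1 was at 0.168 and AKR1C4 at 0.0725. Per kb of coding sequence AKR1C2 stood at 93.5, AKR1C1 at 34.7, AKR7A2 at 27.8 and AKR1C3 at 13.1. Per kb of transcript windows found in no other gene, AKR1C2 stood at 60.83, AKR7A2 at 25.27, AKR1C3 at 19.84 and AKR1C1 at 6.975. AKR1C1 was thus below AKR1C3 on this scale and above it on the others. This scale used a single transcript per gene, of 6543 bases for AKR1C1 and 972 for AKR1C3, which left AKR1C3 almost no untranslated bases. Their windows in no other gene numbered 4826 and 641, so the levels of these genes rest on unlike denominators here. The place of AKR1C1 and AKR1C2 relative to AKR7A2 also depended on the length used, whereas AKR1C3 was below AKR7A2 on each scale.

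Replicates 1 to 3 and replicates 4 to 6 separated along the second principal component (9.76% of the variance) in both groups, so the PBKi effect was compared between these sets. AKR1C2 gave log2 fold changes of 8.46 in the first set and 7.28 in the second, and AKR1B10 gave 6.47 and 4.67. AKR1C1 gave 7.84 and 7.70, AKR1C3 gave 5.62 and 5.51, and AKR1B1 gave 4.08 and 3.28. The difference between the sets (later minus earlier) was -1.16 (standard error 0.90) for AKR1C2 and -1.75 (standard error 1.37) for AKR1B10. In the interaction test of edgeR the adjusted p of the 7 members was 0.927 to 1.00, and 0% of the 14505 genes passed the threshold. At an unadjusted p under 0.05 there were 700 genes in edgeR and 556 in DESeq2, which also called 0 genes, and none of the members was among them in either tool. The standard errors of AKR1B10, AKR1C1, AKR1C2, AKR1C3 and AKR1B1 were 0.85 to 1.37 on the log2 scale, as DMSO counts were low, so only large differences could be seen.

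Other genes with reads overlap AKR1C2, AKR1C3, AKR1D1 and AKR7A2. ENSG00000224251, a long non-coding RNA on the opposite strand within AKR1C2, had 0 reads in DMSO and 25 in PBKi. A pseudogene on the same strand within AKR1C3, RP11-499O7.4, had 0 reads in DMSO and 1 in PBKi. RNU6-1099P, which overlaps AKR7A2, had 2 reads in DMSO and 3 in PBKi. The pseudogenes ENSG00000234639 and ENSG00000231931, which overlap AKR1D1, had 0 reads each in DMSO and 2 and 1 in PBKi. Counting was not stated to use strand. Where exons of AKR1C2 and its antisense gene share bases, their reads cannot be told apart without it. Of the 18 other genes in the files whose names begin with AKR1 or AKR7, 10 had no read in any library. The pseudogene AKR1C7P had 0 reads in DMSO and 2 to 6 in each PBKi library.

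Among other aldo-keto reductases, 5 of 7 listed genes entered the fit, and 1 was called higher, 2 lower and 2 in neither direction. The median log2 fold change of these 5 was -0.45, against -0.01 over all genes tested. KCNAB2, a potassium channel beta subunit with an aldo-keto reductase fold, was higher (38.04 ± 4.36 CPM in DMSO and 48.8 ± 1.55 CPM in PBKi, SD, n = 6, log2 fold change 0.37, standard error 0.07). KCNAB1, its relative, was lower (log2 fold change -0.63, standard error 0.20), as was AKR7L (-0.45, standard error 0.16). AKR1B15 gave 0.04 (standard error 0.20) and KCNAB3 gave -0.48 (standard error 0.28), and neither passed the test. AKR1E2 had no read, and AKR7A3 had 31 reads in DMSO and 36 in PBKi.

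Genes around the AKR1C and AKR1B clusters were examined to see how far along the chromosome such changes reached. Over all genes tested 20.1% were called higher and 21.5% lower. Within 1 Mb of the AKR1C cluster 9 other genes were tested, of which 0 were called higher, 5 lower and 4 neither. All 9 lay past the AKR1C4 end of the cluster, so the AKR1C1 side had no tested gene. The 9 log2 fold changes ranged from -0.72 (PFKFB3, a glycolytic regulator) to 0.11 (TASOR2). NET1, a guanine nucleotide exchange factor and the nearest of these, gave -0.44 (standard error 0.06). Within 1 Mb of the AKR1B cluster 11 genes were tested, of which 3 were called higher, 2 lower and 6 neither. Their log2 fold changes ran from -0.27 (BPGM, a red cell glycolytic enzyme) to 0.85 (TMEM140). The members of each cluster had larger values than any of these neighbours, as the rule that chose them would favour.

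**Figure D4:**
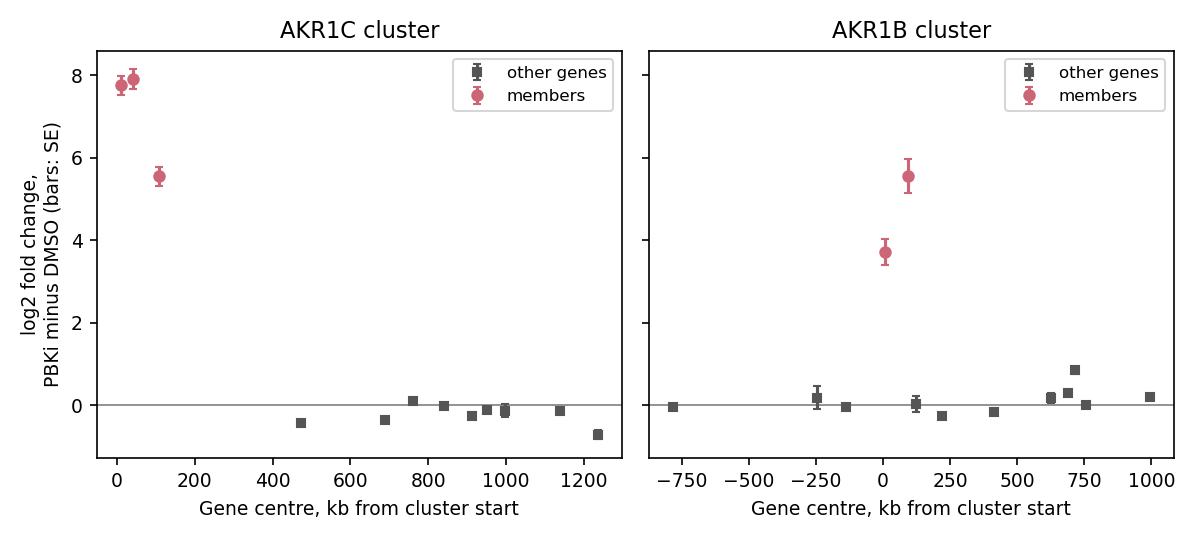
Fitted log2 fold change (PBKi minus DMSO, bars are standard errors) against the distance of each gene's centre in kb from the start of the AKR1C cluster (left) or the AKR1B cluster (right). Members lie between 3.72 and 7.91, and the 9 and 11 other genes tested within 1 Mb lie between -0.72 and 0.85.

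The proximal promoters are shown because AKR1C1, AKR1C2 and AKR1C3 were all highest in PBKi replicate 3 and lowest, among PBKi libraries, in PBKi replicate 5. This was not particular to them, as AKR1B1 had the same highest and lowest PBKi libraries, which were also the farthest from and nearest to DMSO along the first principal component of all genes tested. They come from the RefSeq promoter table (GRCh38.p14), which holds 8 of the 9 members and not AKR1B10. The 250 bases before the start were 96.5% identical between AKR1C1 and AKR1C2, and 71.4% and 69.2% identical between AKR1C1 and the 2 starts of AKR1C3. AKR1C1 and AKR1C4 were 58.7% identical. The 150 bases before each start follow for the AKR1C genes, and for AKR1B1 those before 1 of its 2 starts, with CCAAT boxes in capitals (ATTGG is the box on the other strand). The 2 AKR1C3 lines are its separate starts.
AKR1B1 chr7:134459101-134459250 (-): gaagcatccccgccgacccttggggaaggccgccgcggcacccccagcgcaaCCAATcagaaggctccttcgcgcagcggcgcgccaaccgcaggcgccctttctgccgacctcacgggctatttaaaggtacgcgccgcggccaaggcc
AKR1C1 chr10:4963265-4963414 (+): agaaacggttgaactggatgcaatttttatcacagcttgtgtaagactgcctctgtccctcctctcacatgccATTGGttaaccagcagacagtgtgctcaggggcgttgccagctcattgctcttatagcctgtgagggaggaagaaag
AKR1C2 chr10:5003858-5004007 (-): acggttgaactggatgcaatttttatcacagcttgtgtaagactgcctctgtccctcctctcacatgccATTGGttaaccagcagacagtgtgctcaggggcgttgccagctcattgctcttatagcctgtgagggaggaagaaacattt
AKR1C3 chr10:5048631-5048780 (+): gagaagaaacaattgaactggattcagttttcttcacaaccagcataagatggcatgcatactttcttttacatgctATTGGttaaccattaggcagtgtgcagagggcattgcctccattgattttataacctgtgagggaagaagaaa
AKR1C3 chr10:5094264-5094413 (+): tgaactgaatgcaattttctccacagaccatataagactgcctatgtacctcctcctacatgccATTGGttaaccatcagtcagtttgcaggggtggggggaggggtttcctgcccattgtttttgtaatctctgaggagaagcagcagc
AKR1C4 chr10:5196687-5196836 (+): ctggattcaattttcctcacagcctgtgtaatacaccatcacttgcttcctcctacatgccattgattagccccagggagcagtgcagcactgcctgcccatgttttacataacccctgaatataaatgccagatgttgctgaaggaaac

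The CCAAT box (letters CCAAT, either strand) was present in the promoters of AKR1C1 and AKR1C2, at both starts of AKR1C3 and at 1 of the 2 starts of AKR1B1, the one printed, and in 32.0% of the 35116 promoters of the table. It began 77 bases before the start in AKR1C1 and 81 bases before it in AKR1C2. The printed AKR1C4 promoter holds no such box. The core of the antioxidant response element (TGACNNNGC, either strand) was found in 10.9% of all promoters and, among the members in the table, in that of AKR7A2. The AP-1 site (TGANTCA) was found in 6.57% of promoters and in those of no member in the table. The TATA box (TATAAA) was found in 10.7% of promoters and, among the members, at 1 of the 2 starts of AKR1C3 and in that of AKR1C4. Only the 250 bases before each start were searched, so sites farther away were not examined, and AKR1B10 was not searched at all. A match is a description of letters in the windows searched, not of binding.

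Related genes were followed by lists. Of 30 listed genes of androgen and steroid metabolism 18 were tested, and 5 were called higher, 5 lower and 8 neither, with a median log2 fold change of 0.03. HSD17B14, a hydroxysteroid dehydrogenase that oxidises oestradiol, was higher (0.787 ± 0.295 CPM in DMSO and 3.83 ± 0.389 CPM in PBKi, SD, n = 6, log2 fold change 2.28, standard error 0.20). HSD3B1, which converts dehydroepiandrosterone to androstenedione, was higher from a low level (log2 fold change 1.27, standard error 0.29). HSD17B6, which oxidises androstanediol back to dihydrotestosterone, was lower (6.55 ± 0.862 CPM in DMSO and 3.32 ± 0.308 CPM in PBKi, SD, n = 6, log2 fold change -0.98, standard error 0.11). SULT2B1, a steroid sulphotransferase, was also lower (-0.85, standard error 0.12). SRD5A1, a steroid reductase that makes dihydrotestosterone, was lower by a small amount (log2 fold change -0.24, standard error 0.06). SRD5A3, listed beside it, was called higher by a like amount (log2 fold change 0.24, standard error 0.07).

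Of 25 listed NRF2 target genes 23 were tested, and 21 were called higher, 0 lower and 2 neither. The median log2 fold change was 1.37, against -0.01 over all genes tested. The largest rises were those of OSGIN1, an oxidative stress response gene (6.41 ± 1.05 CPM in DMSO and 45.9 ± 5.36 CPM in PBKi, SD, n = 6, log2 fold change 2.87, standard error 0.10), and FTH1, ferritin heavy chain (2.25, standard error 0.22). GSTM3, a glutathione transferase, had the only negative value, -0.13 (standard error 0.07), and TXN, thioredoxin, gave 0.16 (standard error 0.08), and neither passed the test. ME1, malic enzyme, which supplies NADPH, the cofactor of the aldo-keto reductases, was among those called higher (log2 fold change 1.52, standard error 0.08). Each of these values is below those of the 5 responding members, as the choice of the members on this contrast would favour. The NRF2 list was assembled with earlier results of these libraries known, so its direction is not independent evidence.

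Of 22 listed carbonyl, aldehyde and polyol enzymes outside the family 20 were tested, and 7 were called higher, 2 lower and 11 neither, with a median log2 fold change of 0.02. ALDH3A1, an aldehyde dehydrogenase, was higher (0.429 ± 0.182 CPM in DMSO and 3.42 ± 0.823 CPM in PBKi, SD, n = 6, log2 fold change 3.04, standard error 0.24), as was CBR3, a carbonyl reductase (1.33, standard error 0.12). DCXR, an enzyme of the xylulose pathway, was lower (-0.52, standard error 0.08), as was CBR4 (-0.28, standard error 0.07). SORD, sorbitol dehydrogenase, which acts on the product of AKR1B1, gave -0.11 (standard error 0.05) and did not pass the test.

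**Figure D5:**
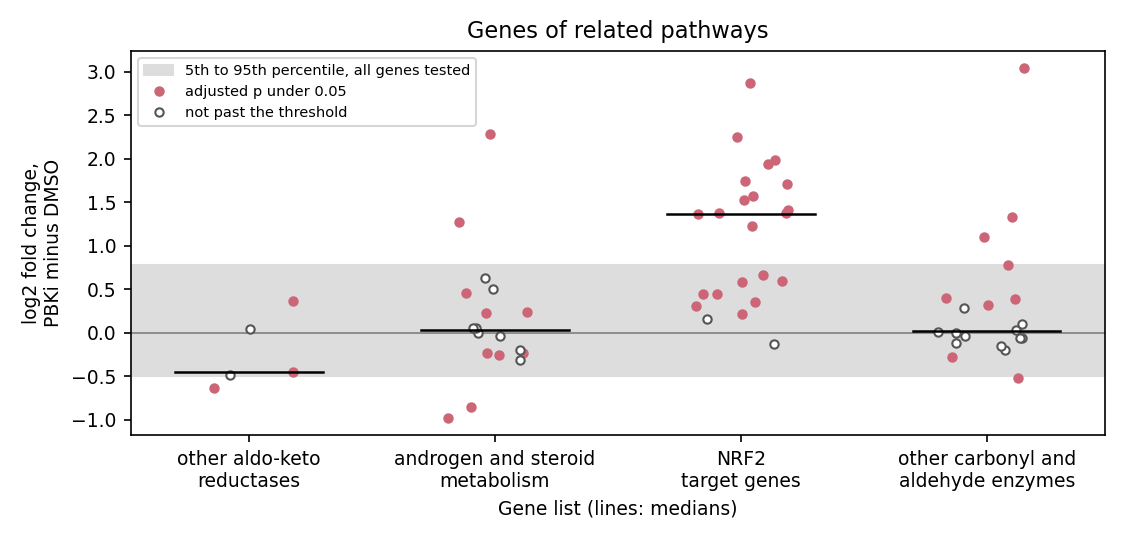
Fitted log2 fold change (PBKi minus DMSO) of each tested gene of 4 lists, filled where the adjusted p was under 0.05, with the list median as a line. The grey band is the 5th to 95th percentile of all genes tested (-0.49 to 0.78), and the NRF2 list has its median, 1.37, above the band.

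The genes outside the family whose log2 CPM followed AKR1C2 most closely over the 12 libraries were found by Pearson's r among 14498 genes. They were NMRAL2P (r = 0.994), SCPEP1 (0.994), DDX60 (0.992), NOS3 (0.992) and ENSG00000249705 (0.992). The libraries form 2 clusters, DMSO and PBKi, that share treatment, so these values describe mainly the difference between the groups. Within the 6 PBKi libraries r with AKR1C2 was 0.639 for NMRAL2P, 0.852 for SCPEP1, 0.818 for DDX60, 0.809 for NOS3 and 0.761 for ENSG00000249705. NMRAL2P, a transcribed pseudogene, was at 0.108 to 0.692 CPM in DMSO and 6.87 to 12.03 CPM in PBKi (log2 fold change 4.41, standard error 0.23). SCPEP1, a serine carboxypeptidase, was at 43.3 to 51.6 CPM in DMSO and 80.9 to 92.1 CPM in PBKi (log2 fold change 0.82, standard error 0.05). NOS3, endothelial nitric oxide synthase, and DDX60, an interferon-inducible helicase, gave log2 fold changes of 3.49 and 3.71.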

How the data were processed

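Per the labels and the study's methods, RNA of C4-2 cells was sequenced with TruSeq libraries, and the authors aligned reads to GRCh37 with TopHat2 2.0.4 and counted reads per gene with HTSeq 0.5.3p9. The deposited values are raw counts per gene and lane, without normalisation. DESeq 1.10.1 was the study's own test. Reads that align to more than 1 place (4167946 to 13073669 alignments per library) are not in the gene counts, reads outside genes were 5.74% to 9.30% and ambiguous reads 3.87% to 4.35%.

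Lanes of a library were summed (chi-square per degree of freedom 0.993 to 1.02, against 4.11 to 25.2 between replicates). DMSO replicate 5 had 3 lanes and the others 4. Genes reaching 10 counts in 6 or more libraries (the size of the smaller group when libraries were left out, set after seeing that a fixed 6 removes members from the test when a PBKi library is left out) were fitted with TMM factors and edgeR 4.0.16's quasi-likelihood test in R 4.3.3, adjusted by Benjamini-Hochberg at 0.05, and the standard error is the log2 fold change over the square root of F. The procedure was tested on simulated data. DESeq2 1.42.0 was an alternative. Log2 CPM used a prior count of 2 and the DMSO order a pseudocount of 0.5. Ratios of pooled counts have exact conditional binomial intervals and shares have Wilson intervals, at 95%, covering counting error only. Symbols matched 47098 of 54127 identifiers, coordinates are GENCODE 44 mapped to GRCh37, whereas the authors used an older annotation.

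The members and the gene lists were chosen with earlier results of these data known. Genes named were the members, the other aldo-keto reductases tested, the 2 largest rises and 2 largest falls of each other list, and the 5 genes most like the most abundant AKR1B or AKR1C member. SRD5A1, SRD5A3, TXN, ME1, SORD, cluster neighbours, overlapping genes and HSD17B3 and CYP19A1 were named after their values were seen.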

Additional observations from a re-analysis of the deposited data

Results flagged for a closer look

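In 18 groups of 6 libraries (9 members, DMSO or PBKi) 2 had a library far from the others by Dixon's test. The usual rate of about 1 in 20 groups flagged by chance does not apply to these 2, where most libraries had 0 reads. AKR1B10 was at 0.277 CPM in DMSO replicate 4, from 4 reads, and the next highest DMSO library was at 0.0721 CPM. AKR1C4 was at 0.0693 CPM in DMSO replicate 4, from 1 read, and the other DMSO libraries were at 0, so any read there would have been flagged.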

How the results depend on the processing

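The members were chosen on this contrast, so repeated calls on the same libraries are no further evidence. AKR1C1, AKR1C2, AKR1C3, AKR1B10 and AKR1B1 were called higher in each alternative fit that tested them. AKR1B1 and AKR1B10 were not tested with at least 50 counts in at least 6 libraries, where the 4 members called higher were AKR1C1, AKR1C2, AKR1C3 and AKR1A1. Leaving out each of the 12 libraries gave log2 fold changes of 7.76 to 8.29 for AKR1C2, 7.63 to 7.96 for AKR1C1, 5.33 to 5.92 for AKR1C3, 5.23 to 6.69 for AKR1B10 and 3.44 to 4.02 for AKR1B1. AKR1A1 passed the threshold with at least 50 counts, with the replicate block, in replicates 1 to 3 alone and without DMSO replicate 5 or PBKi replicate 5. Without a library 5 or 6 members were called higher. With at least 50 counts, which tests fewer genes, the median log2 fold change was 0.39 for the other aldo-keto reductases and -0.18 for androgen and steroid metabolism, both of opposite sign to the values reported. In replicates 4 to 6 alone 1303 genes were called higher and 1216 lower, with fewer libraries, and the medians were 1.15 for NRF2 targets and 0.058 for carbonyl enzymes. The carbonyl list median was 0.0021 to 0.056 with a library left out. The difference of the PBKi effect between the sets of replicates changed sign with a library left out for AKR1B10 (-4.08 to 2.24), AKR1C1 (-0.51 to 0.71), AKR1C3 (-0.88 to 0.34) and AKR7A2 (-0.042 to 0.12), no member passed the threshold, and the cause was not tested. Between libraries of the same replicate number, the correlation of deviations was 0.0887 to 0.299 and over 0.1 in 5 of 6 pairs. Of the 12 libraries, 8 correlated best with their own number. The replicate numbers thus carried some shared structure, which the reported fit, with no block, left out. The fit with the replicate block called 3485 genes higher and 3803 lower, and 6 members higher, against 2921, 3125 and 5 in the reported fit. In DMSO the ranking made with the pseudocount changed in lanes 6 to 8 alone. It also changed with length counted over unique windows of a single transcript per gene (AKR1C3 above AKR1D1, and AKR1C4 above AKR1B10). With the annotated coding length AKR1C2 came above AKR1C3, and AKR1C1 above AKR1B10. The annotated coding length was added after seeing the data in place of the coding length of a protein table, which was not run. Leaving out a DMSO library from the order gives 5 libraries, too few to pass the test, and 2 to 4 neighbour pairs of the order re-ranked on those libraries had the same sign in all 5, the lowest number without DMSO replicate 1. Low DMSO counts, 6 to 34 reads pooled for the responding members, limit the precision of their fold changes more than the PBKi counts do.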

Other observations

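HSD17B3 and CYP19A1, 2 genes of androgen and steroid metabolism with too few counts for the test, were singled out after their values were seen. HSD17B3, which reduces androstenedione to testosterone as AKR1C3 does, had 2 reads over the DMSO libraries and 53 over the PBKi libraries, a ratio of 25.1 (exact 95% interval 6.62 to 212.8, counting error only). Its level was 0.357 to 0.763 CPM in PBKi and 0 to 0.108 CPM in DMSO, with no overlap. CYP19A1, aromatase, which converts androgens to oestrogens, had 1 read in DMSO and 53 in PBKi, a ratio of 50.2 (exact 95% interval 8.64 to 2022), and was at 0.268 to 0.763 CPM in PBKi and at most 0.0693 CPM in DMSO.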
